A study of Mus musculus with 12 samples.

Results

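Genes for the secreted BMP, activin and TGF-beta ligands, with 2 of their secreted antagonists, were read in single cells of mammary glands and mammary tumors. The set held 10 genes taken by name from the 21743 genes of the count table, and all 10 were present. They were the BMP ligands Bmp2, Bmp4 and Bmp7, the BMP antagonist Grem1, the activin subunits Inhba and Inhbb, the activin antagonist Fst, and the TGF-beta ligands Tgfb1, Tgfb2 and Tgfb3. Their levels and the share of cells with a transcript were compared between gland epithelium, the Epcam-positive and the Cav1-high cells of the first tumor, the cells of the second tumor, and stromal cells.

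All groups came from 2 mice that carried MMTV-Cre and Brca1 flox/flox (strain C57BL/6 and 129/Sv mixed), glands included, and no group came from a mouse without these alleles. The fourth pair of mammary glands (MG1, MG2) and a mammary tumor (MT1, MT2) were taken from each mouse, hematopoietic and endothelial cells were depleted with an epithelial enrichment kit, and the cells were profiled by Drop-seq, which captures each cell with a barcoded bead and counts each RNA molecule once by its unique molecular identifier (UMI). The MMTV promoter drives Cre mainly in mammary epithelium. Whether Brca1 was lost in stromal cells, or in each epithelial cell, was not checked. The labels give no age for these tumor-bearing mice, and the age that the methods state for gland donors is not tied to them. There were 2 libraries each of MG1 and MG2, 5 of MT1 and 3 of MT2. Libraries of a tissue repeat the preparation and not the animal, so p-values between libraries cover the spread between preparations, and the mouse, its tumor and its library preparation cannot be told apart.

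The table held 21157 cells, with 693333 to 14841414 UMIs per library and a median of 1784 to 4842 UMIs per cell. MG1 replicate 2 was the smallest library, with 105 cells. Pairs of libraries shared 0 to 7 cell barcodes. Levels are given in CPM, the UMIs of a gene relative to all UMIs of the same cells. Brca1, the targeted gene, had 0 UMIs in both MG1 libraries (which allows up to 0.944 CPM, at the floor of 3 counts over the group), 19 in MG2, 199 in MT1 and 412 in MT2. Since reads come from the 3′ end of the transcript, this does not check the loss of the floxed exons. Clustering, made without the 10 genes and the pathway genes below, set apart 1131 cells as stromal, namely 698 that were fibroblast-like, 246 endothelial-like and 187 immune-like. The gland epithelium was the remaining 2777 gland cells, of which 1190 were luminal secretory-like, 1188 luminal hormone-sensing-like and 337 basal-like. The rest of these, 14 cells of MG1 and 48 of MG2, lay in clusters made up to at least 90% of tumor cells. The remaining 7458 MT1 cells were split by a gate on Epcam, an epithelial adhesion gene, and Cav1, the caveolin gene high in its mesenchymal cells, into 5601 Epcam-positive and 1424 Cav1-high cells, with 433 in neither class. All 9791 remaining MT2 cells were kept as 1 class. Checked against markers, MT2 cells were low in epithelial genes, with 644 to 878 CPM summed over 8 epithelial genes against 12176 to 14773 in gland epithelium. The 8 fibroblast markers summed to 3902 to 4399 CPM in MT2 and 1431 to 1659 in Cav1-high cells, below the 13922 to 41551 of fibroblast-like cells. In Cav1-high cells nearly all of this sum was Dcn (1485 CPM pooled). Pdgfra (14.0) and Col3a1 (8.62) lay above gland epithelium (4.12 and 7.16). Col1a1 (2.95), Lum (1.72) and Dpt (0.739) lay below it (4.21, 3.94 and 7.34).

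Ligands of this superfamily are secreted dimers that bind pairs of type I and type II serine-threonine kinase receptors on the cell surface. TGF-beta and activin receptors act through Smad2 and Smad3, and BMP receptors through Smad1, Smad5 and Smad9, and both join Smad4 to switch target genes. Antagonists bind the ligands outside the cell, Gremlin 1 (Grem1) taking up BMPs and follistatin (Fst) taking up activins. In the mammary gland these signals are known for their part in ductal branching and in restraining epithelial growth, and in carcinomas TGF-beta is known for its link to epithelial-to-mesenchymal transition. Errors of a level are the SD over libraries. Levels are compared within a gene and not between genes, and log2 fold changes come from edgeR's quasi-likelihood test on counts summed per library, called at a Benjamini-Hochberg adjusted p under 0.05.

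Of the 10 genes, Grem1, Inhba and Tgfb2 were called higher in both tumors than in the gland of the same mouse. Their upstream sequences are shown because these are the members called higher in both mice. Of all genes tested, 32.2% were called higher in mouse 1 and 32.7% in mouse 2, and 27.1% and 34.2% lower. The share of all genes called the same way in both mice was not counted, so these groups of members do not set the 10 genes apart. Of Bmp4, Inhbb and Tgfb3, called lower in both, Bmp4 and Inhbb held no match to the motifs below in the same window and are not shown, and Tgfb3 was not among those matched to a promoter. In all, 6 of the 10 matched a RefSeq promoter of GRCm38.p6. Each run gives the 250 bases before the annotated start in gene direction, and capitals mark matches to the motifs searched on both strands. The TATA box, TATAAA, was in 12.4% of 32851 promoters of this length. The AP-1 site TGACTCA was in 4.46% and the CRE site TGACGTCA in 1.55% of them. The SMAD box CAGAC was in 42.2% and the richer SMAD element, spelled GGCGCC, was in 9.59%. No motif holds another.
Grem1: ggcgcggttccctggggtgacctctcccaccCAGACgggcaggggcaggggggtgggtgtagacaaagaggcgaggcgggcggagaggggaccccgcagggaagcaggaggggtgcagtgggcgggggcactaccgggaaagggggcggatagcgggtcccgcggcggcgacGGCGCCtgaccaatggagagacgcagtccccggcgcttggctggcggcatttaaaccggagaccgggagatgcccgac
Inhba: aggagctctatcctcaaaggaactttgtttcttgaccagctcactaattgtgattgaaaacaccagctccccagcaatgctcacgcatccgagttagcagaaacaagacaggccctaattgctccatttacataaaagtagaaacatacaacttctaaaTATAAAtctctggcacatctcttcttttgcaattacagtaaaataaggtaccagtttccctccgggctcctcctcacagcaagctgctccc
Tgfb2: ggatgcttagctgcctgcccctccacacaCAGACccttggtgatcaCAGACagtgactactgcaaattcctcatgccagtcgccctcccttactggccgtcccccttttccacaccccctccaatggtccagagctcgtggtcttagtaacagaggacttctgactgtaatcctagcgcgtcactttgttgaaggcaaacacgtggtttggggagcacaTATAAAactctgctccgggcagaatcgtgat
The Grem1 run (chr2:113758649-113758898, minus strand) held 24 CpG dinucleotides, with the SMAD box from -219 to -215 and the richer SMAD element from -78 to -73 relative to the start. The Inhba run (chr13:16011601-16011850, plus strand) held 3 CpG and a TATA box from -91 to -86. The Tgfb2 run (chr1:186705990-186706239, minus strand) held 8 CpG, a TATA box from -31 to -26 and the SMAD box in 2 places. The median promoter held 6 CpG, so the Grem1 run lay above and the Inhba run below it, and no motif was in all 3 runs. A match is a match of letters and not a measured binding site.

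Grem1 (chromosome 2, 113746164 to 113758646, minus strand in GRCm38, protein-coding) separated the 2 tumors. It had 0 UMIs in both MG1 libraries and 0.246 and 1.02 CPM in the MG2 libraries. MT1 replicates 1 to 5 had 1.82, 6.28, 4.40, 3.47 and 5.75 CPM, and MT2 replicates 1 to 3 had 1055, 886 and 1004 CPM. Every MT2 library lay far above all MT1 and gland libraries. The MT1 values lay above the gland values, but on few UMIs, with 3 in MT1 replicate 1 and 4 in MG2 replicate 2. A full separation of MT1 from gland libraries is therefore not shown. In mouse 2 the log2 fold change was 10.71 ± 0.38 (SE; edgeR adjusted p 2.90e-13). In mouse 1 Grem1 was at least 4.68-fold higher in the tumor, the bound that the floor of 3 counts over MG1 allows, and the call was lost without MG1 replicate 1 and after thinning to 800 UMIs per cell. Because MG1 held no Grem1 UMI, the difference between the mice could not be estimated for it.

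Inhba, the activin A subunit gene (chromosome 13, 16011851 to 16031621, plus strand), rose in both mice. It had 35.8 and 11.5 CPM in MG1, 30.7 and 34.9 in MG2, 259, 216, 265, 269 and 297 in MT1, and 1610, 1525 and 1485 in MT2. The 3 levels, gland, MT1 and MT2, did not overlap in any library. The rise was 3.11 ± 0.28 on the log2 scale in mouse 1 (edgeR adjusted p 6.96e-08) and 5.69 ± 0.29 in mouse 2 (edgeR adjusted p 7.00e-12). Gland Inhba rested partly on few cells: 30 of 101 MG1 UMIs lay in 1 cell, and 46.2% of the MG2 UMIs lay in 48 gland cells that clustered with tumor cells. Of these 48, 45 lay in the Cav1-rich cluster, beside 1346 MT1 and 13 MT2 cells, and so with the tumor of the other mouse. That cluster scored for 0 of 8 epithelial markers. Without gland cells in tumor clusters the rises were 3.35 and 6.51. Without MG1 replicate 1 that of mouse 1 was 4.66, and all were called. Tgfb2, a TGF-beta ligand (chromosome 1, 186622792 to 186705989, minus strand), differed less between groups. The glands had 45.5 ± 11.6 CPM (MG1, n = 2) and 50.2 ± 1.10 (MG2, n = 2), the tumors 73.6 ± 4.99 (MT1, n = 5) and 67.0 ± 6.62 (MT2, n = 3). Its log2 fold changes were 0.77 ± 0.17 in mouse 1, lost without MG1 replicate 1 (0.62) and after thinning (0.45), and 0.56 ± 0.15 in mouse 2, called in each alternative run. Tgfb2, Inhba, Bmp4, Fst and Tgfb3 each overlap genes on the opposite strand, and whether counting used strand is not stated, so reads of such partners cannot be told apart.

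**Figure D1:**
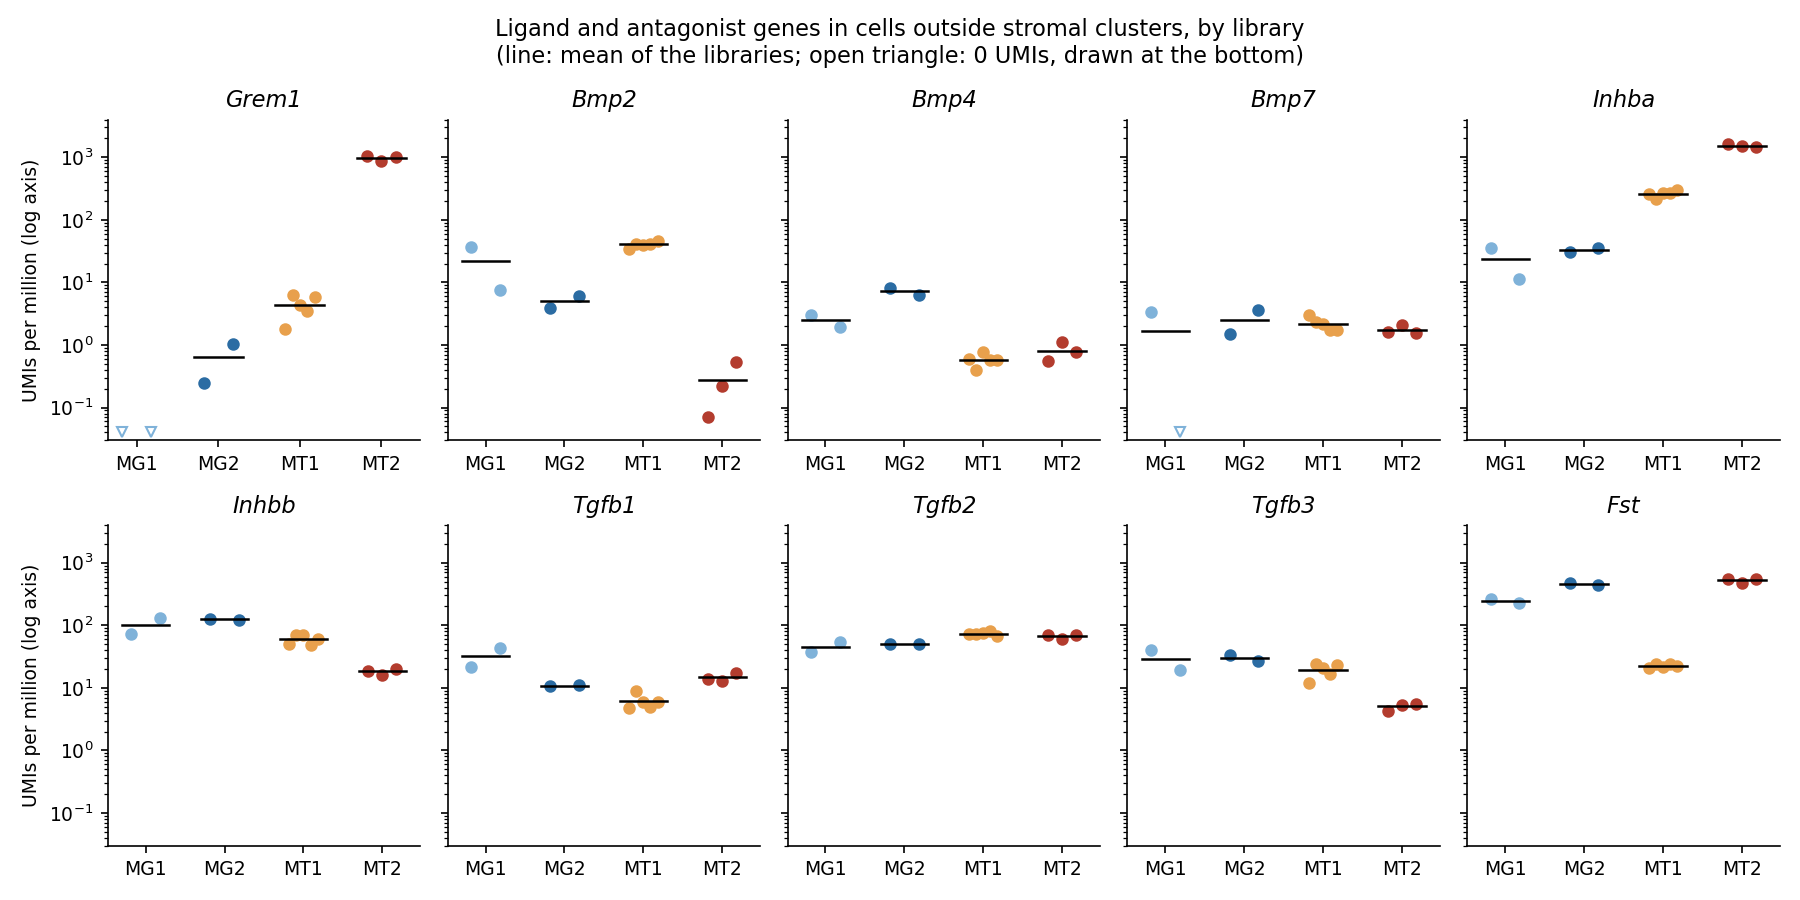
Level of each gene (CPM, log axis) in cells outside stromal clusters, 1 point per library, with a line at the group mean and open triangles at 0 UMIs. Grem1 and Inhba climb from gland to MT1 to MT2, Bmp2 is lowest in MT2 (0.275 ± 0.237), and Fst falls in MT1 (22.5 ± 1.58).

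Bmp2, a BMP ligand (chromosome 2, 133552159 to 133562885, plus strand), was lowest in MT2. It had 36.9 and 7.67 CPM in MG1, 3.93 and 6.12 in MG2, 34.5, 40.8, 39.9, 41.5 and 45.7 in MT1, and 0.0699, 0.220 and 0.535 in MT2. Every MT2 library lay below all other libraries, and MT1 overlapped MG1. The fall in mouse 2 was -3.98 ± 0.61 (edgeR adjusted p 1.53e-05). In mouse 1 the change was 0.42 ± 0.31 and not called (edgeR adjusted p 0.251), but a single cell of MG1 replicate 1 held 64 of the 102 MG1 UMIs of Bmp2. Without that cell the library stood at 12.8 CPM, and without the gland cells in tumor clusters, which hold 68.6% of MG1 Bmp2 UMIs, the tumor was higher by 1.89, a call. Without MG1 replicate 1 as a whole it was higher by 2.57 (edgeR adjusted p 0.00117), so the result for mouse 1 rests on that library. Bmp4, another BMP ligand (chromosome 14, 46383520 to 46390669), was sparse, with 164 UMIs in the whole table. Its levels were 2.47 ± 0.775 CPM (MG1) and 7.24 ± 1.23 (MG2) in the glands and 0.582 ± 0.130 (MT1) and 0.807 ± 0.272 (MT2) in the tumors. The falls of Bmp4 were -2.22 ± 0.62 in mouse 1, lost without MG1 replicate 1 (-1.45), and -3.00 ± 0.35 in mouse 2. Bmp7 (148 UMIs in the table) had 3.39 and 0 CPM in the MG1 libraries and group means of 2.52 ± 1.48 for MG2, 2.19 ± 0.538 for MT1 and 1.73 ± 0.281 for MT2. It was called in neither mouse (-0.45 ± 0.60 and -0.39 ± 0.46).

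Inhbb, the activin B subunit gene (chromosome 1, 119415465 to 119422248, minus strand), went the other way from Inhba. It had 73.4 and 128 CPM in MG1, 127 and 122 in MG2, 50.3, 69.1, 69.4, 49.0 and 59.8 in MT1, and 18.3, 16.3 and 20.3 in MT2. No tumor library reached the lowest gland library. Inhbb fell by 0.65 ± 0.19 on the log2 scale in mouse 1 (edgeR adjusted p 0.00751), a call lost without MG1 replicate 2 (-0.41), and by 2.62 ± 0.19 in mouse 2 (edgeR adjusted p 8.16e-10). Tgfb3 (chromosome 12, 86056745 to 86079041, minus strand) fell in mouse 2, from 33.2 and 26.5 CPM in MG2 to 4.33, 5.35 and 5.43 in MT2 (-2.43 ± 0.27). In mouse 1 the Tgfb3 change was -0.83 ± 0.28 and turned to 0.20 without MG1 replicate 1, and its call was lost with all cells taken (-0.57). Tgfb1, the ligand held latent in matrix (chromosome 7, 25687002 to 25705077, plus strand), fell in mouse 1 from 21.5 and 44.1 CPM to 4.85 to 9.03 (median 5.92), a change of -2.22 ± 0.27. In mouse 2 it stood at 10.8 and 10.96 CPM in MG2 and 14.0, 13.0 and 17.4 in MT2 (0.58 ± 0.24, edgeR adjusted p 0.0416), a call that held in 11 of 21 alternatives.

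Fst (chromosome 13, 114452290 to 114458951, minus strand) was lowest in MT1. It had 261 and 226 CPM in MG1, 482 and 433 in MG2, 20.6, 24.0, 21.3, 24.1 and 22.4 in MT1, and 553, 467 and 548 in MT2. MT2 and MG2 overlapped, while every MT1 library lay below every other library. The change was -3.46 ± 0.16 in mouse 1 (edgeR adjusted p 2.27e-11) and 0.33 ± 0.16 in mouse 2 (edgeR adjusted p 0.0787), the latter called in 11 of 21 alternatives. Within the gland the transcript was concentrated in basal-like cells, the contractile outer layer, as a description of clusters. Basal-like cells were 16.3% of MG1 and 10.8% of MG2 gland epithelial cells and held 81.7% and 71.8% of the Fst UMIs. Their level was 2143 CPM in MG1 replicate 1 and 4231 and 4110 in MG2, against 15.0 to 175 in luminal secretory-like and 31.3 to 137 in luminal hormone-sensing-like cells. The share of basal cells therefore enters the gland level. Against luminal gland cells alone, an alternative chosen after seeing these values, Fst changed by -1.14 in mouse 1 and by 2.00 in mouse 2, both called. With the basal-like cells set aside, MT2 was thus above its gland and MT1 below.

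**Figure D2:**
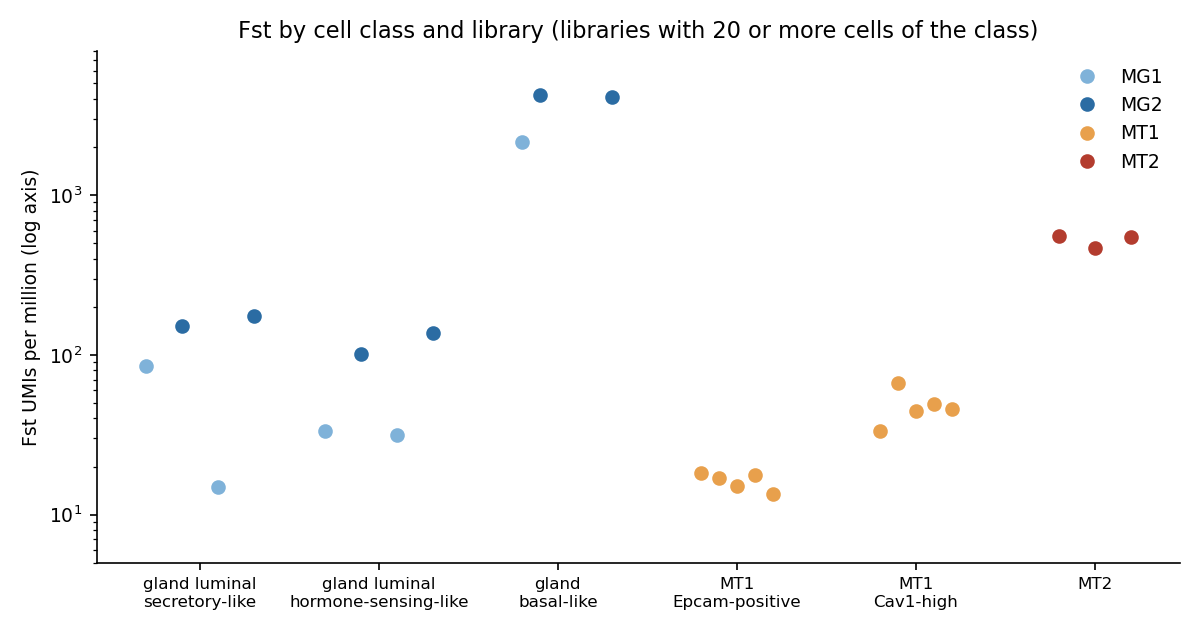
Fst level (CPM, log axis) by cell class, 1 point per library with 20 or more cells of the class, colored by gland or tumor. Gland basal-like cells lie at 2143 to 4231, MT2 at 467 to 553, luminal gland cells at 15.0 to 175, and MT1 Epcam-positive cells at 13.5 to 18.3.

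In counts, 8 of the 10 genes were called in mouse 1 (3 higher and 5 lower), where 59.3% of all genes tested were called (32.2% higher and 27.1% lower). In mouse 2, 8 of 10 were called (4 higher and 4 lower), where 66.9% of all genes were called (32.7% higher and 34.2% lower). With so many genes called, these counts do not set the 10 genes apart. The median log2 fold change of the 10 genes was -0.55 in mouse 1 and -0.03 in mouse 2, beside 0.11 and -0.05 over all genes. Without MG1 replicate 1 the mouse 1 median turned to 0.41 (0.26 over all genes), and without MG2 replicate 2 that of mouse 2 turned to 0.49 (0.15 over all genes). Under the RLE scaling the all-gene median of mouse 1 moved from 0.11 to 0.00. The change differed between the mice, by edgeR's test of the difference, for 6 of the 10 genes, where 43.5% of all genes differed (26.4% higher and 17.1% lower in mouse 1). These were Bmp2 (mouse 1 minus mouse 2, 4.40 ± 0.69), Inhbb (1.97 ± 0.27) and Tgfb3 (1.59 ± 0.39) on 1 side and Fst (-3.79 ± 0.24), Tgfb1 (-2.80 ± 0.36) and Inhba (-2.59 ± 0.36) on the other. Without MG1 replicate 1 the Inhba difference was not called (-1.04), and those of Bmp2 (6.55) and Tgfb3 (2.62) were larger. Taking the mouse as the replicate, with gland and tumor paired, edgeR called 0 of 14946 genes (0.0%), with 2215 at an unadjusted p under 0.05, and DESeq2 called 1323 genes (9.11%). In that fit Grem1 (10.81 ± 0.70, edgeR adjusted p 0.311) and Inhba (4.42 ± 0.94, edgeR adjusted p 0.311) had the lowest unadjusted p-values of the 10 (0.000148 and 0.0108), and they were the 2 genes of the set that DESeq2 called.

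To find which MT1 cells carried these transcripts, Cav1-high and Epcam-positive cells of the same 5 libraries were compared, with the library as block. The gate used none of the 10 genes. Inhba had the largest log2 fold change of the genes tested here from the set. Its level in replicates 1 to 5 was 28.8, 35.4, 44.4, 33.2 and 33.5 CPM in Epcam-positive cells and 1019, 1286, 1135, 1118 and 1106 in Cav1-high cells, a log2 fold change of 4.96 ± 0.07 (edgeR adjusted p 1.50e-38). The MG1 gland had 11.5 and 35.8 CPM, and Epcam-positive cells were not tested against it. Bmp2 had 16.6, 5.20, 16.7, 7.84 and 11.4 CPM in Epcam-positive and 90.5, 257, 133, 153 and 150 in Cav1-high cells (3.70 ± 0.18, edgeR adjusted p 3.99e-21). For both genes the highest Epcam-positive library lay below the lowest Cav1-high library.

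Fst was also higher in Cav1-high cells, at 33.6 to 66.2 CPM against 13.5 to 18.3 (1.56 ± 0.15, edgeR adjusted p 1.69e-11). Inhbb and Tgfb3 were lower there, by 1.26 ± 0.15 and 1.01 ± 0.23 on the log2 scale. Inhbb had 57.0 to 78.9 CPM in Epcam-positive and 17.5 to 55.2 in Cav1-high cells. Tgfb2 lay at 71.0 to 80.8 CPM in Epcam-positive and 61.9 to 93.9 in Cav1-high cells, overlapping, with a difference of 0.07 ± 0.10 (edgeR adjusted p 0.563). Of the 6 genes that passed the count filter 5 were called (3 higher and 2 lower), where 63.1% of all genes tested were called. Grem1, Tgfb1, Bmp4 and Bmp7 did not pass it. With no filter Grem1 (5.64) and Tgfb1 (1.19) were called higher. Grem1 gave 0, 1, 2, 1 and 1 UMIs in the Epcam-positive and 3, 15, 27, 17 and 19 UMIs in the Cav1-high cells of replicates 1 to 5, although the Epcam-positive cells were the more numerous in each library. Pooled, this was 0.343 CPM and 19.9 CPM. Of the Cav1-high cells, 33 sat at the gate's edge with exactly 2 Cav1 UMIs. In the whole Cav1-high class the endothelial markers summed to 8.28 to 24.1 CPM (3 of 8 at 0) and the immune markers to 1.78 to 16.6 (4 of 8 at 0).

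**Figure D3:**
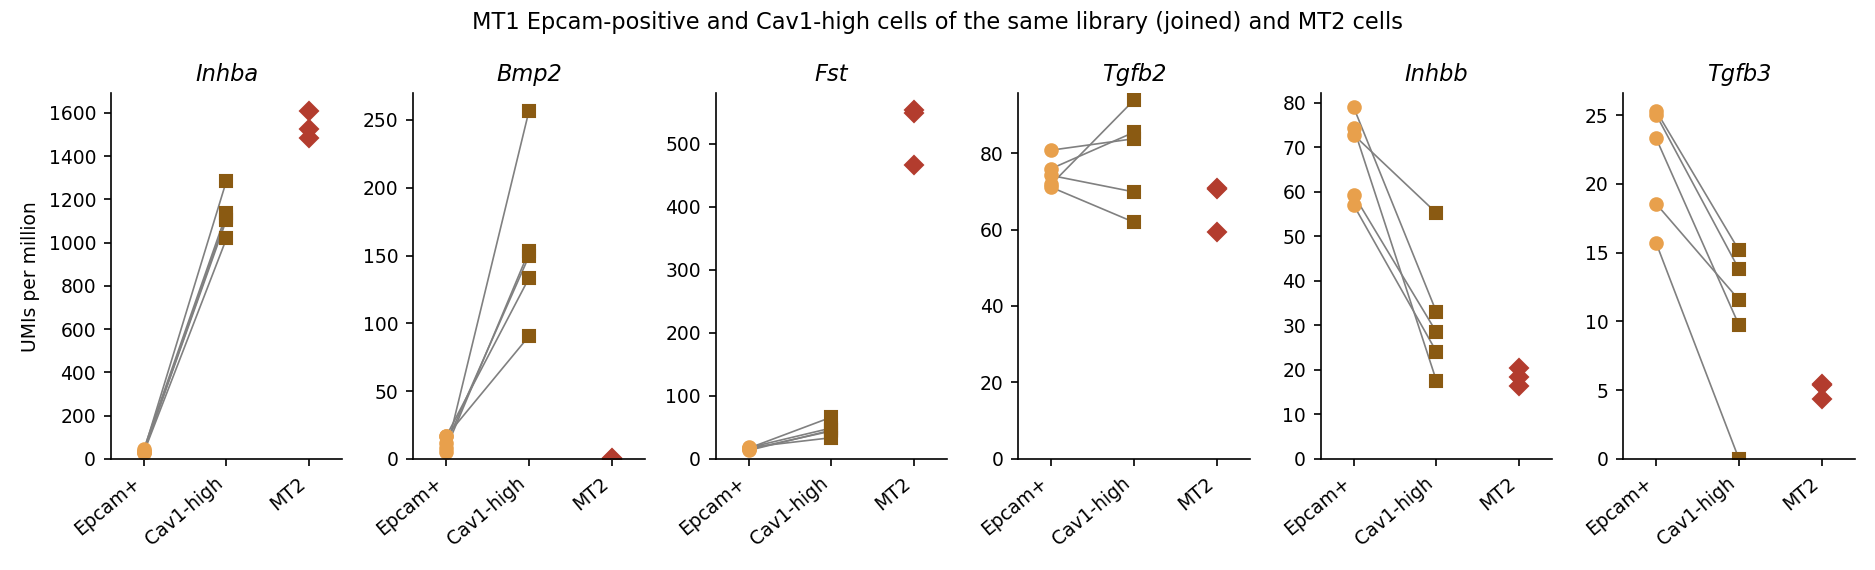
Levels (CPM, linear axes from 0) of 6 genes in Epcam-positive and Cav1-high cells of MT1, joined by library, and in the 3 MT2 libraries. Inhba (28.8 to 44.4 against 1019 to 1286) and Bmp2 rise in Cav1-high cells of each library, Inhbb and Tgfb3 fall, and Tgfb2 crosses.

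Over whole tumors, 7 of the 10 genes differed between MT1 and MT2, where 68.4% of all genes did (35.3% higher and 33.1% lower in MT1). Bmp2 (7.09 ± 0.39), Tgfb3 (1.92 ± 0.23) and Inhbb (1.66 ± 0.16) were higher in MT1, and Grem1 (-7.83 ± 0.21), Fst (-4.58 ± 0.14), Inhba (-2.61 ± 0.17) and Tgfb1 (-1.32 ± 0.20) were lower. Set against MT2, the Cav1-high cells of MT1 had a log2 difference of -0.50 ± 0.12 for Inhba (edgeR adjusted p 0.000735), with 1019 to 1286 CPM against 1485 to 1610 and no overlap. Between these classes Bmp2, Grem1 and Fst kept wide gaps, while the values of Tgfb1, Inhbb and Tgfb3 were smaller than between the whole tumors. Bmp2 was higher in Cav1-high cells by 8.99 ± 0.35, with 606 UMIs in 1424 cells against 11 UMIs in 9791 MT2 cells. Grem1 was lower by 5.66 ± 0.19 (7.76 to 41.4 CPM against 886 to 1055) and Fst by 3.53 ± 0.15. Tgfb3 (1.05 ± 0.32) and Inhbb (0.62 ± 0.22, a call that held in 9 of 14 alternatives) were higher in Cav1-high cells. Tgfb2 (0.18 ± 0.15) and Tgfb1 (-0.47 ± 0.26) were not called, and 6 of the 8 genes tested were, beside 63.3% of all genes (31.4% higher and 31.9% lower). MT2 cells that pass the same Cav1 gate, 4889 of 9791, gave the same calls.

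As shares, every cell was thinned to 800 UMIs so that depth did not enter, and the percent of cells with at least 1 UMI was read with exact Clopper-Pearson 95% intervals, which cover counting error only. In MT2, Inhba was seen in 54.7% of cells (53.7 to 55.7), Grem1 in 47.4% (46.4 to 48.4) and Fst in 29.5% (28.6 to 30.4), and without thinning in 83.8%, 82.2% and 60.8%. Immune-like cells of the same tumor were set beside them, at 25.3% for Inhba, 18.5% for Grem1 and 14.6% for Fst (178 cells, median 2287 UMIs, against 3142 in MT2 cells). The part of free RNA in the shares of immune-like cells was not tested. The MT2 shares lay above those of immune-like cells, outside their intervals, whose upper bounds were 32.3%, 25.0% and 20.7%. In Cav1-high cells of MT1, Inhba was seen in 46.8% of cells (44.2 to 49.4) and in Epcam-positive cells in 2.82% (2.403 to 3.29). Bmp2 was seen in 9.41% of Cav1-high (7.94 to 11.05) and 0.768% of Epcam-positive cells (0.556 to 1.03). Gland basal-like cells had Fst in 77.2% of cells (72.3 to 81.5), against 5.38% of luminal secretory-like and 4.55% of hormone-sensing-like cells.

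Among luminal gland cells, secretory-like cells had Tgfb2 in 5.80% and Tgfb3 in 3.19% of cells. Hormone-sensing-like cells had Tgfb2 in 0.842%, and Tgfb2 stood at 76.4 CPM in secretory-like and 20.4 CPM in hormone-sensing-like cells. Tgfb1 went the other way from Tgfb2, in 0.168% of secretory-like and 1.68% of hormone-sensing-like cells. For Inhbb the glands differed in order, with 3.99% of secretory-like and 9.70% of hormone-sensing-like cells in MG1 and 11.6% and 7.17% in MG2. Grem1 was seen in 2 of 2777 gland epithelial cells after thinning (0.0720%). With both glands pooled, Bmp4 was seen in 0.589% of hormone-sensing-like and Bmp7 in 1.19% of basal-like cells, levels too near that of single UMIs to compare.

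**Figure D4:**
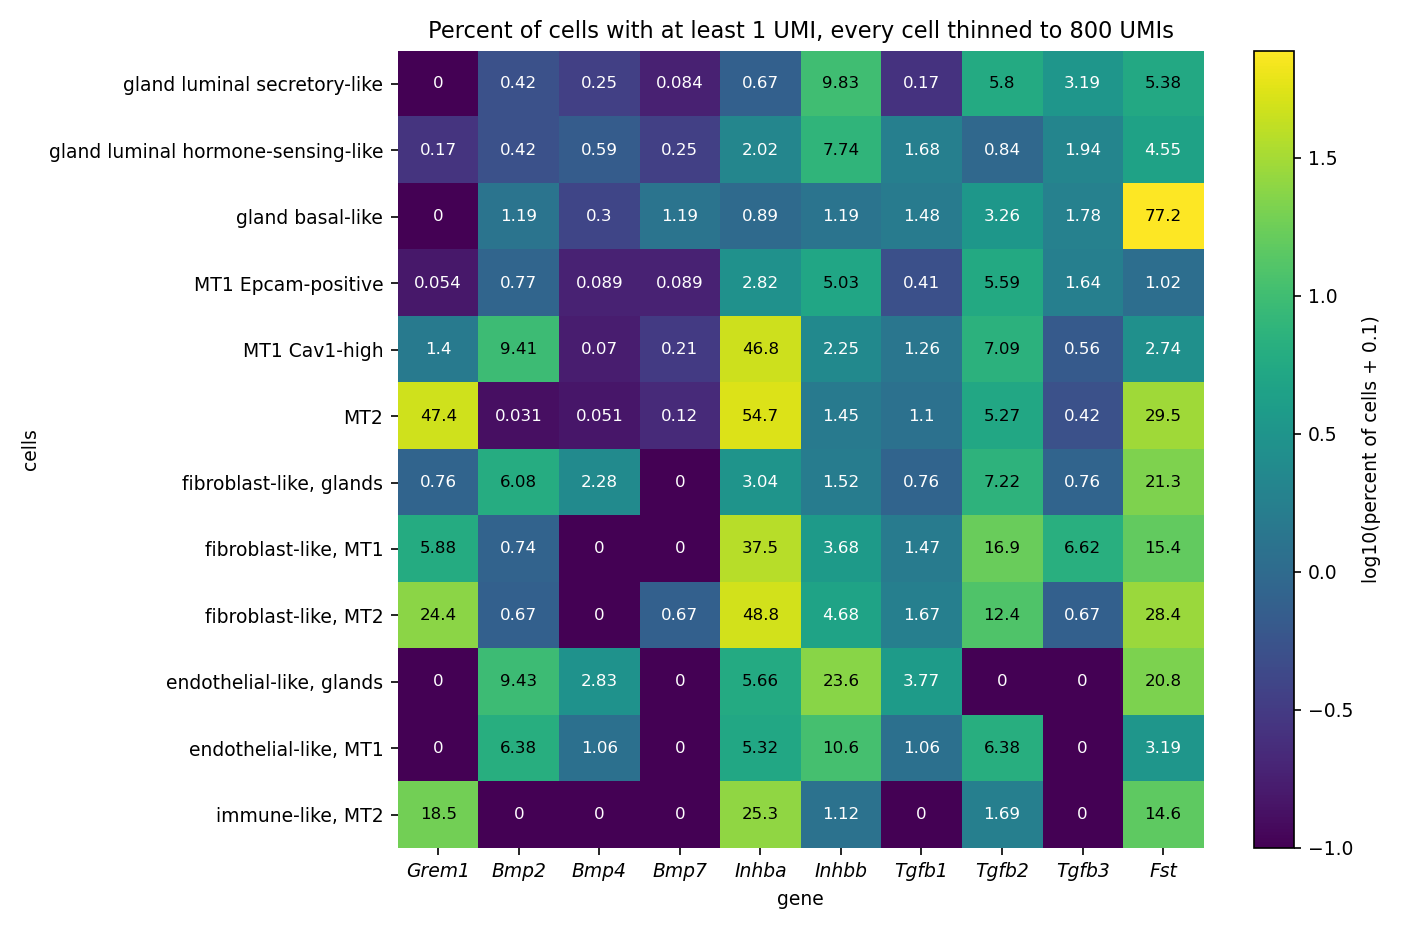
Percent of cells with at least 1 UMI of each gene (number in each tile, color on a log10 scale) by cell class, each cell thinned to 800 UMIs. The fullest tiles are Fst in gland basal-like cells (77.2), Inhba and Grem1 in MT2 (54.7 and 47.4) and Inhba in fibroblast-like cells of MT2 (48.8) and Cav1-high cells of MT1 (46.8).

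Stromal cells were read last, starting from fibroblast-like cells (126 and 137 in the glands of mouse 1 and 2, 136 and 299 in their tumors). Inhba was higher in the fibroblast-like cells of both tumors. MT1 replicate 1 held too few such cells for a value of its own. Gland libraries had 123 and 38.6 CPM (MG1) and 12.1 and 25.9 (MG2), MT1 replicates 2 to 5 had 2124, 1687, 1200 and 1416, and MT2 had 1570, 1456 and 1341. The log2 fold changes were 3.74 ± 0.41 (edgeR adjusted p 3.93e-07) and 6.03 ± 0.53 (edgeR adjusted p 1.14e-08), with MT1 replicate 1 kept in the fit. Pooled over MT1 these cells had 1587 CPM of Inhba, beside 1127 in Cav1-high cells. In MT2 they stood at 94.8% of the level of the tumor cells, while immune-like cells stood at 45.7% and endothelial-like cells at 72.9%. The part of free RNA from tumor cells in these stromal levels was not tested.

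Grem1 in fibroblast-like cells was 0 and 0 in MG1, 6.04 and 15.6 in MG2, 25.0, 62.9, 81.8 and 155 in MT1, and 405, 624 and 499 CPM in MT2. It was at least 13.3-fold higher in MT1 than in MG1, and higher by 5.27 ± 0.56 on the log2 scale in MT2. The MT1 level (77.1 CPM pooled) was above that of MT1 tumor cells (4.42), whereas in MT2 it was 50.8% of that of the tumor cells, near the 45.9% seen in immune-like cells. Tgfb2 gave 296 CPM pooled in MT1 fibroblast-like cells, against 158 in MG1, and 209 in those of MT2, against 72.5 in MG2. The change was called in mouse 2 (1.34 ± 0.46, edgeR adjusted p 0.0391, held in 12 of 17 alternatives) and not in mouse 1 (0.77 ± 0.41, but 1.89 and called without MG1 replicate 1). For Tgfb2 the fibroblast-like level in MT2 was 312% of the tumor-cell level and the immune-like level 44.0%. Tgfb3 was called higher in MT1 (1.84 ± 0.71, edgeR adjusted p 0.0439, held in 7 of 17 alternatives). Leaving out 1 library gave values from 1.26 to 6.63 for it. Bmp2 fell in mouse 1, from 139 and 193 CPM to 0 to 54.6 (-3.12 ± 0.60), and was not called in mouse 2 (-1.71 ± 0.78). Bmp4 had 16 UMIs in MG1 fibroblast-like cells and 0 in those of MT1, at least 3.20-fold lower, and did not pass the filter. Fst was called in neither mouse (-0.52 ± 0.35 and -0.36 ± 0.32). In all, 4 of 6 genes tested were called in mouse 1 (3 higher and 1 lower), beside 37.0% of all genes (16.4% higher and 20.6% lower), and 3 of 6 in mouse 2, all higher, beside 21.2% (8.92% higher).

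**Figure D5:**
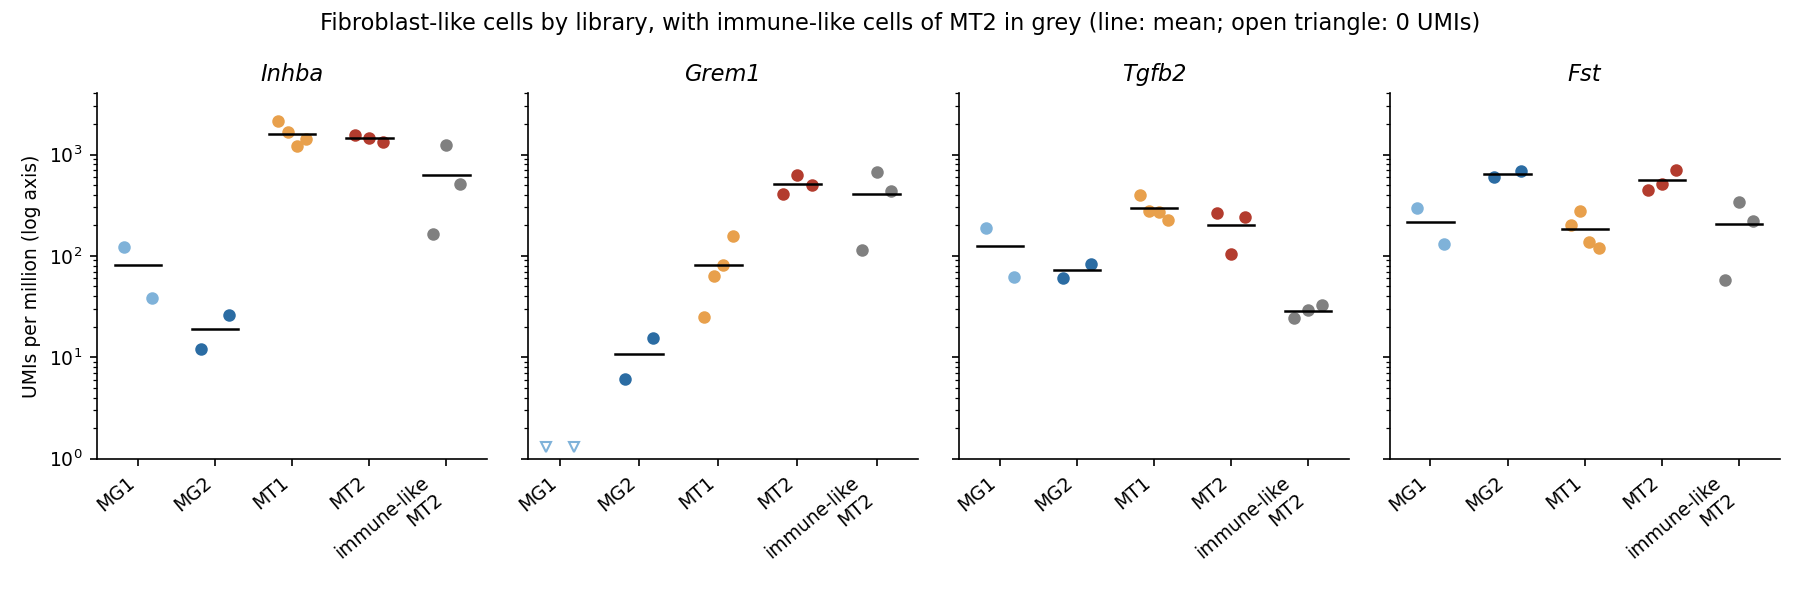
Levels (CPM, log axis) of 4 genes in fibroblast-like cells, 1 point per library with 20 or more such cells, a line at the mean, and immune-like cells of MT2 in grey. Inhba lies at 12.1 to 123 in glands and 1200 to 2124 in tumors, and Grem1 in MT2 fibroblast-like cells (405 to 624) overlaps the immune-like cells.

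Endothelial-like cells, which line vessels and had been depleted, had Inhbb and Bmp2 at high levels. Inhbb stood at 574 and 402 CPM in the MG2 libraries and at 183 and 105 in MT1 replicates 3 and 4, and Bmp2 at 149, 149, 113 and 120 in the same libraries. With Inhbb in 23.6% and Bmp2 in 9.43% of gland endothelial-like cells, both shares were above those of gland epithelium (7.81% and 0.540%). Bmp4 pooled to 75.0 CPM in gland endothelial-like cells and 6.00 in gland epithelium. These classes come from clusters, so the values are given with no test. The endothelial-like cluster also scored for 7 of 10 basal markers, which include contractile genes.

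The other genes of the pathway were read from a list of 65 that held further ligands, receptors, Smads, antagonists and target genes. In mouse 1, 14 of 53 tested were higher and 28 lower in the tumor, beside 32.2% and 27.1% of all genes. Without MG1 replicate 1 the median log2 fold change of the list was -0.20, beside 0.26 over all genes. The BMP target gene Msx2 fell by 4.69 ± 0.60, and by 3.74 without that library. The ligand Bmp3 (-5.47 ± 0.61) and the target gene Msx1 (-4.26 ± 0.67) lost the call without it (-1.85 and -2.40), and their MG1 levels were 14.9 ± 18.4 and 4.54 ± 3.70 CPM (SD, n = 2). Also in mouse 1 the nodal antagonist Lefty1 was at least 9.97-fold higher, the ligand Gdf5 at least 2.23-fold and the BMP co-receptor Rgma at least 2.18-fold, the last pair not called without MG1 replicate 1. In mouse 2, 18 of 53 were higher and 17 lower, beside 32.7% and 34.2% of all genes. Bmp3 was at least 315-fold and Msx2 at least 159-fold lower in MT2, Id4 fell by 6.11 ± 0.32, and the TGF-beta-induced matrix gene Tgfbi (5.78 ± 0.39) and Lefty1 (5.69 ± 0.46) rose. Gdf5 was at least 7.07-fold higher. Of 15 target genes 3 were higher and 10 lower in mouse 1, and 5 higher and 6 lower in mouse 2, to be read beside the same shares of all genes. The list medians were -0.55 and -0.07, beside 0.11 and -0.05 over all genes. The difference between the mice was called for 9 genes with the higher and 18 with the lower value in mouse 1, beside 26.4% and 17.1% of all genes. Among them Acvr2b (4.58) had the higher value in mouse 1, and Msx1 (-4.87), Fstl1 (-4.27) and Gdf11 (-3.58) the lower. Without MG1 replicate 1 the list median of this difference moved from -0.28 to -0.04 (from 0.15 to 0.36 over all genes), and Msx1 was not called (-3.02). Without MG1 replicate 2 Gdf11 was not called (-2.64). Bmp3 and Msx2 were called too, but had 0 UMIs in MT2, so no size is given for them. Between the tumors 11 were higher and 25 lower in MT1, beside 35.3% and 33.1% of all genes. Bmp3 was at least 6.33-fold and Msx2 at least 4.93-fold higher there (Bmp3 not called without MT1 replicate 3), with Id2 higher by 3.48, and Msx1 (-4.21), Fstl1 (-3.42) and Bmpr1b (-3.21) were lower.

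Between the MT1 classes, 19 of 37 tested pathway genes were higher and 11 lower in Cav1-high cells, where 31.0% and 32.1% of all genes were. Tgfbi (6.43 ± 0.29), the BMP antagonist Nbl1 (4.34 ± 0.16) and the follistatin-like gene Fstl1 (3.86 ± 0.13) rose most, and Thbs1, whose product activates latent TGF-beta (-1.57 ± 0.08), the decoy receptor Bambi (-1.56 ± 0.21) and Tgif1 (-1.15 ± 0.10), a Smad co-repressor gene, fell most. Smads were 5 higher and 1 lower of 6. Against MT2, 9 of 38 were higher and 17 lower in Cav1-high cells, beside 31.4% and 31.9% of all genes. There the BMP target gene Id2 (3.10 ± 0.21), Nbl1 (3.00 ± 0.16) and Bambi (1.97 ± 0.34) were higher, the BMP receptor Bmpr1b was at least 16.9-fold lower, and the TGF-beta co-receptor Tgfbr3 (-1.98 ± 0.18) and the target gene Ctgf (-1.71 ± 0.18) were lower. In fibroblast-like cells 3 of 33 were higher and 9 lower in MT1, beside 16.4% and 20.6% of all genes, with Ltbp2, a latent TGF-beta binding protein gene, at 5.32 ± 0.74 and Fstl3 at 2.14 ± 0.75, while Tgfbr3 (-2.67 ± 0.48), Ltbp4 (-2.26 ± 0.57) and the ligand Gdf10 (-2.03 ± 0.79) fell. Without MG1 replicate 1 the list median moved from -0.55 to -0.32 (0.18 over all genes in that run), Fstl3 was not called (1.74) and Gdf10 turned to 0.91. The Gdf10 call was also lost without several other single libraries. Without MG1 replicate 2 neither Fstl3 (2.32) nor Ltbp4 (-1.13) was called. In MT2 0 were higher and 12 lower, beside 8.92% and 12.3% of all genes. Without MG2 replicate 2 the list median moved from -0.62 to -0.21 (0.09 over all genes in that run). The BMP antagonist Chrdl1 was at least 33.3-fold lower, Gdf10 at least 25.8-fold lower, and the latency gene Ltbp4 fell by 4.42 ± 0.60 in MT2 fibroblast-like cells.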

How the data were processed

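Drop-seq counts of mouse cells were used. The authors aligned reads with STAR to GRCm38.p6, counted with the Drop-seq tools and filtered cells, and the deposited values are UMI counts by gene and cell that were not normalized. STAR and the build are also in the submitters' processing notes. 0 columns were left without a library. Whether counting used strand is not stated. The 10 genes, the pathway list of 65 and the tests were chosen with earlier results of these data known.

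Clustering used python 3.11.15 with scanpy 1.11.5 (leidenalg 0.10.2, resolution 0.6) on 30 components and 20 neighbours, from 3000 variable genes that left out the 10 genes and the pathway list. A cluster received a cell-type name with "-like" where at least 5 markers of an immune, endothelial, fibroblast, basal or luminal type stood at least 2-fold above the other cells (CPM + 10), taking the types in that order, a minimum set after the clusters were seen. The general epithelial markers gave no name. Doublets were not removed, since the caller marked 44 cells (0.208%), and the top 5% of doublet scores per library were left out as an alternative. Cav1-high cells had 2 or more Cav1 UMIs and more Cav1 than Epcam UMIs, and Epcam-positive cells 1 or more Epcam UMIs and more Epcam than Cav1. UMI counts were summed per library and class and tested in R 4.3.3 with edgeR 4.0.16 (quasi-likelihood F test, TMM, filterByExpr, Benjamini-Hochberg over all genes tested, threshold 0.05), after the scripts were tested on simulated data. Fibroblast-like sums needed 10 cells, and printed class values of a library 20 cells. Standard errors are the log2 fold change over the square root of F. A group at 0 was set to the floor of 3 counts over the group for a bound.

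The 693333 to 14841414 UMIs per library limit the precision of Bmp4, Bmp7 and Grem1 outside MT2. Alternatives were RLE scaling, DESeq2 1.42.0, no count filter, other cell choices, thinning to 800 UMIs and leaving out each library. Pairing by mouse comes from the labels, and library numbers, given in accession order, pair nothing. All 10 genes are named, and of the pathway list the 3 called genes with the largest rise and the 3 with the largest fall per contrast are named, except 1 gene that is not reported here. For likeness, Pearson r of log2(CPM + 1) was taken over library-by-class sums of 20 or more cells, for genes of 200 or more UMIs. Gene positions are from GENCODE on GRCm38, and promoter sequences from RefSeq on GRCm38.p6.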

Additional observations from a re-analysis of the deposited data

Results flagged for a closer look

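In 38 sets of 4 or 5 libraries of MT1 examined for a library far from the others, 1 had one, where chance gives about 1 in 20. This was Tgfb1 in MT1 replicate 2, at 9.03 CPM in cells outside stromal clusters, against a group median of 5.92 and a nearest library at 6.04.

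The tumor-against-gland change differed between the mice, by edgeR's test of the difference, for 6 genes. The difference (mouse 1 minus mouse 2, log2) was 4.40 for Bmp2, 1.97 for Inhbb, 1.59 for Tgfb3, -2.59 for Inhba, -2.80 for Tgfb1 and -3.79 for Fst. For Inhba it was -1.04 and not called without MG1 replicate 1, and for Tgfb3 it was 1.17 and not called after thinning. Each mouse gave 1 tumor, so tumor and mouse cannot be told apart.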

How the results depend on the processing

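Over the tests of the 10 genes, processing alternatives left 508 values with their direction and side of the threshold, 16 lost the call, 10 gained one and 11 changed sign, and leaving out a library did so for 675, 23, 9 and 11. The calls of Inhba, Fst and Tgfb1 in mouse 1, of Grem1, Inhba, Inhbb, Bmp2, Bmp4, Tgfb2 and Tgfb3 in mouse 2, and of Inhba, Bmp2, Fst, Inhbb and Tgfb3 between the MT1 classes held in each alternative run. Depth limits Bmp4, Bmp7 and gland Grem1, and shares of cells moved without thinning (75 shares moved and 15 did not). For values below the cause was not tested.

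With all cells, stromal ones included, the sign turned for Bmp2 in mouse 1 (-0.20) and for the difference between mice of Bmp4 (-0.23) and Tgfb2 (-0.14). Thinning to 800 UMIs turned Fst in mouse 2 (-0.013), Tgfb2 in the difference (-0.18) and Tgfb2 between the tumors (-0.043). After it, 8 of the 10 genes passed the count filter in mouse 1 and 5 were called. Fewer genes were tested in all. The genes called, MT1 against MG1, were 4066 of 10248, and the genes called, difference between mice, 2882 of 10248. The genes called, Cav1-high against Epcam-positive, were 2794 of 5374, and the genes called, Cav1-high against MT2, 3092 of 5341. With no count filter Tgfb2 between the tumors was -0.017, and with the stricter gate Tgfb2 between the MT1 classes was -0.021. Without the top doublet scores Bmp7 in the difference was 0.12 and Tgfb3 in fibroblast-like cells of mouse 2 was 0.32. None of these reversed values was called.

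Leaving out 1 library gave ranges that crossed 0 for Bmp7 in mouse 1 (-0.81 to 6.69; the highest value without MG1 replicate 1, when MG1 holds 0 UMIs), Tgfb3 in mouse 1 (-1.12 to 0.20), Bmp7 in mouse 2 (-0.66 to 0.54), Bmp7 in the difference (-0.92 to 7.07), Tgfb2 between the tumors (-0.042 to 0.15), and, in fibroblast-like cells, Fst in mouse 1 (-0.94 to 0.22) and Tgfb3 in mouse 2 (-1.01 to 0.72). The number of the 10 genes called in mouse 1 ranged from 5 to 8, lowest without MG1 replicate 1, and the genes called, fibroblast-like MT2 against MG2, ranged from 361 to 1046, lowest without MG2 replicate 2. Without MG1 replicate 1, which leaves 1 MG1 library, a smaller share of all genes was called in mouse 1 as well. The lower count of the 10 genes in that run therefore does not set them apart.

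In the fit paired by mouse, 0 of the 10 genes and 0 of all genes were called with and with no replicate block, Bmp2 turned from -1.69 to 0.17 with no replicate block, and DESeq2 called 2 of the 10 genes and 1323 in all. Between the MT1 classes the block by library changed no call of the 10 genes (Inhba 4.97 with no replicate block).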

Other observations

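Within MT2 the 3 clusters differed in level, as a description. The cluster led by Nrep and Fn1 had 1271 CPM of Grem1, 2082 of Inhba, 700 of Fst and 105 of Tgfb2. The cluster led by mitotic genes such as Cenpe and Top2a had 721, 1098, 408 and 46.5 CPM, and the cluster led by Hbb-bs and Cxcl3 had 998, 1501, 461 and 46.8 CPM.

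Some pairs of the set were seen together in more MT2 cells after thinning than if unrelated, and others in fewer. Grem1 and Inhba were both seen in 2735 cells, where 2540 would be if they were unrelated, Inhba and Fst in 1774 (1577), Grem1 and Fst in 1483 (1369) and Inhbb and Tgfb2 in 18 (7.48). Among those below that number were Grem1 and Inhbb in 59 cells (67.4), Inhba and Inhbb in 72 (77.6) and Tgfb1 and Fst in 27 (31.8). Grem1 and Tgfb3 in 15 (19.5) and Grem1 and Bmp7 in 1 (5.69) were also below. In Cav1-high cells Inhba and Bmp2 were both seen in 76 cells (62.7 if unrelated). These counts share cells and depth and carry no test.

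Over 42 library-by-class sums and 11759 genes, the genes most like each member in level, by Pearson r across sums that share libraries, were Ptprn (0.88) and Col5a3 (0.87) for Grem1, Selenof (0.90) and Maged2 (0.86) for Inhba, Dnajc25 (0.91) and Pdzrn3 (0.75) for Tgfb2, Mt2 (0.84) and Tgfbr3 (0.82) for Fst, Yes1 (0.77) and Clu (0.75) for Inhbb, and Plvap (0.69) and Man1a (0.69) for Bmp2. For Tgfb1 and Tgfb3 the highest r was 0.67 (Pgm1) and 0.66 (1500015O10Rik). Bmp4 and Bmp7 fell under the 200 UMIs needed.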
